A study of Mus musculus with 7 samples.

Results

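The comparison described here is that of mouse 3T3-L1 cells at 24 h with the same line at 4 h after conditioned medium was given. The 3T3-L1 line is an established line of mouse embryonic fibroblasts that can be turned into fat cells by hormones. Both libraries came from cells given conditioned medium (CM), which was MDI medium that 3T3-L1 cells had already been differentiating in for 48 h. MDI contains IBMX, which blocks phosphodiesterases and so raises cAMP, dexamethasone, a synthetic glucocorticoid, and insulin, and these agents were therefore part of the starting medium of both libraries. The study holds 7 RNA-seq libraries in 7 conditions. Used beside the CM pair were the confluent cells before differentiation (0 h control) and the libraries at 4 h and 24 h in fresh MDI, while a pair from preconfluent cells was not used. The authors' files do not set 24 h against 4 h in CM. The 2 CM libraries were joined by gene, and a gene was counted as measured if it was protein-coding and had an FPKM of at least 1 in either of them. FPKM are fragments per kilobase of transcript, scaled to the sequenced fragments. This left 10479 of 20164 protein-coding genes (23996 genes of any kind are listed).

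Each condition is 1 library, so no difference below has a replicate check, and no test or error can be given. A gene is called at least 2-fold higher or lower when log2(FPKM + 1) at 24 h minus that at 4 h is at least 1 in size. That scale understates changes of weakly expressed genes. There was no library kept in the same medium without inducers at 4 h or 24 h, so time in the medium, elapsed time in culture and a difference between single cultures cannot be told apart. RNA was taken from whole cultures, in which fewer cells of a kind and less RNA per cell cannot be told apart either.

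Confluent 3T3-L1 cells that receive MDI first show a short burst of transcription driven by glucocorticoid, cAMP and growth factor signals. They then re-enter the cell cycle, a step called mitotic clonal expansion, before the transcription factors C/EBPα and PPARγ turn on genes of the fat cell. Medium taken from differentiating cells holds what is left of the inducers together with what those cells released.

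Between 4 h and 24 h in CM, 663 genes were at least 2-fold higher (6.33% of the measured genes) and 748 were at least 2-fold lower (7.14%). The other 9068 genes stayed within 2-fold. The median difference was -0.02 on the log2 scale, and 90% of genes lay between -1.19 and 1.11. At least 4-fold differences were met by 134 genes in each direction. The single differences ran from -5.21 for Il1rl1 to 5.95 for Ren1. Of the measured genes, 411 reached an FPKM of 1 at 24 h alone and 258 at 4 h alone. Genes that were higher at 24 h had a median FPKM of 3.15 at 4 h and 11.5 at 24 h, beside 5.22 in the 0 h control. Genes that were lower had medians of 27.8 at 4 h and 8.59 at 24 h, beside 14.4 at 0 h. By these medians the lower genes were better expressed at 4 h than the higher genes were at 24 h. The threshold runs through a dense region, with 158 genes between 0.9 and 1 and 126 genes between 1 and 1.1, and on the lower side with 151 and 126.

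**Figure D1:**
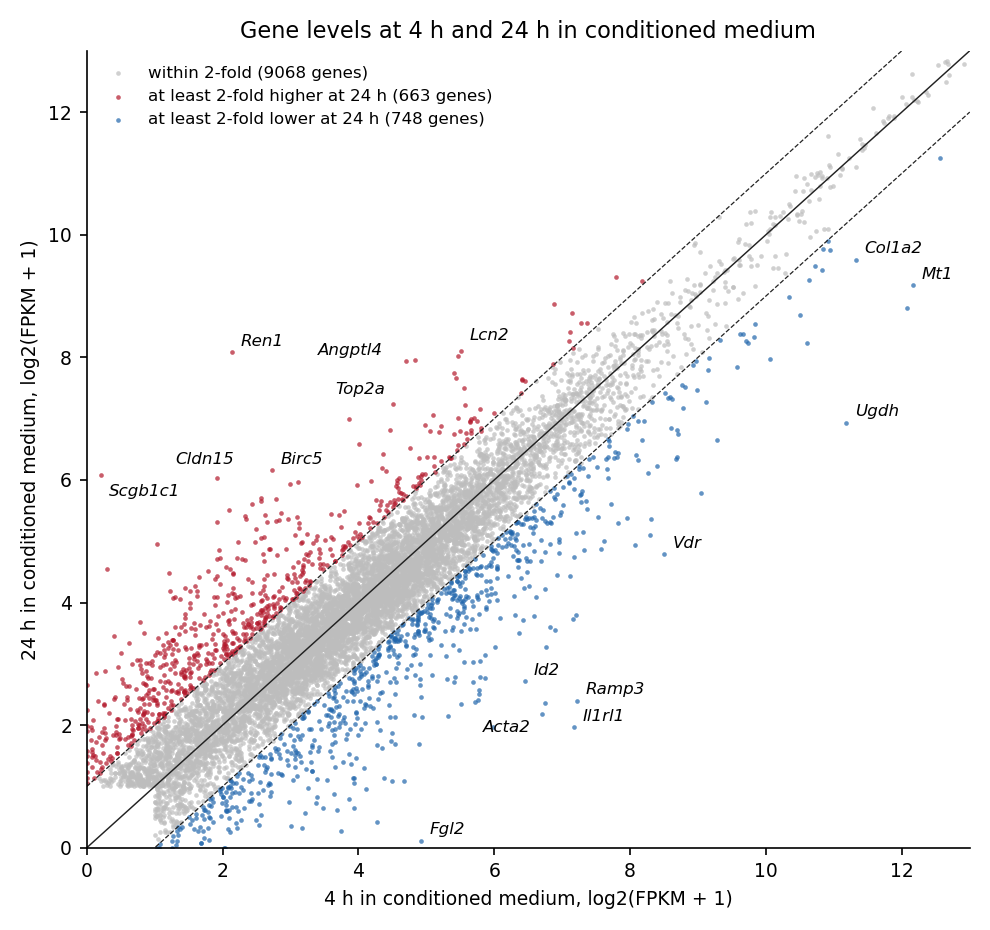
Level of each of the 10479 measured protein-coding genes at 4 h (x axis) and 24 h (y axis) in conditioned medium, both as log2(FPKM + 1), with 1 library an axis. The solid line marks equal levels and the dashed lines a difference of 1; red points are the 663 genes that were at least 2-fold higher at 24 h and blue points the 748 that were lower, with Ren1 and Scgb1c1 farthest above and Il1rl1 and Ramp3 farthest below.

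Read totals cannot be had from FPKM, so the depth of the CM libraries is unknown. From the ratios of their lowest values, 1 read was worth about 1.12 times more FPKM at 4 h than at 24 h. FPKM summed to 681510 at 4 h and 635375 at 24 h, and 10615 and 10799 genes of any kind reached an FPKM of 1. The labels call the cells adipocytes. Of 26 mature adipocyte genes 13 were measured, and Lep (leptin), Pck1 and Acp5 were listed at 0 in both libraries, while Adipoq, the adiponectin gene, was at 0.0511 and 0.930. Among markers of other cell types, none of 7 endothelial, 7 epithelial or 9 brown and beige fat markers reached an FPKM of 1, and their summed FPKM were at most 0.219, 0.132 and 0.779 in the CM libraries. The macrophage markers Ptprc and Tyrobp were listed at 0 at both times, and 2 of 8 in that list, Cd68 and Cd14, were measured (summed FPKM of the list 5.29 at 4 h and 3.08 at 24 h). Of 9 bone and cartilage markers 3 were measured, all within 2-fold: Sox9, a factor of cartilage that is also among the regulators of adipogenesis, at 21.3 and 37.7, Runx2 at 2.95 and 2.50, and Alpl at 0.758 and 1.06 (sum of the list 25.7 and 41.9), while Sp7, Ibsp, Acan and Col2a1 stayed under an FPKM of 1. Of 9 muscle markers Tnnt3 (8.23 and 6.88) and Tnnt2 (1.41 and 0.269) were measured, with a list sum of 10.1 and 7.75, and Myod1, Myog and Ckm were listed at 0. Of 7 neuronal and glial markers Tubb3 alone was measured, at least 2-fold lower at 3.14 and 0.533 (sum 3.41 and 0.707), and Rbfox3 and Sox10 were listed at 0. The part of these cell types in the results was not tested.

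Of the 39 gene lists, those of cell division had the largest median differences. List counts below stand beside shares of 6.33% higher and 7.14% lower over all measured genes. Genes for entry into mitosis and the spindle checkpoint, for the kinetochore, and for spindle motors and cytokinesis held 79 different measured genes, of which 76 were at least 2-fold higher at 24 h and 0 were lower. Their median difference was 2.13, against -0.02 over all measured genes. In the order given, 2, 6 and 2 genes of these lists were counted as measured through the 24 h library alone. Those genes could only lie on the higher side. The cyclin gene Ccnb2 had an FPKM of 6.12 at 0 h, 3.29 at 4 h and 44.8 at 24 h, a 13.6-fold ratio between the CM libraries. Ube2c, the ubiquitin-conjugating enzyme that works with the anaphase-promoting complex, was at 14.8, 13.5 and 126 in the same order. Its activator Cdc20 went from 6.99 at 4 h to 59.8 at 24 h, and Pttg1, the securin that holds sister chromatids together until anaphase, from 4.07 to 40.1. In each of these genes the 0 h and 4 h libraries were both low and the 24 h library stood far above both.

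At the kinetochore, the protein assembly that joins chromosomes to the spindle, 25 of 27 measured genes were higher and 0 were lower (median 2.09, or 1.09 with a pseudocount of 5). Among the 21 with an FPKM of 1 or more at both times 19 were higher. Cenpa, the histone variant that marks centromeres, was at 4.92 at 4 h and 49.6 at 24 h, and Nuf2, a microtubule-binding subunit, at 1.45 and 16.1. Zwint was the exception, at 26.3 and 20.7, and Dsn1 stayed just inside the limit, at 5.08 and 10.5. All 26 measured genes for spindle motors and cytokinesis were higher (median 2.32). Birc5 (survivin), a subunit of the chromosomal passenger complex, was at 9.41 at 0 h, 5.65 at 4 h and 70.4 at 24 h, and the kinesin Kif20a at 6.96, 4.42 and 48.0. Among mitotic entry genes Bub3 alone was within 2-fold, at 42.04 and 55.9. Of 17 genes of cohesin, condensin and topoisomerase 13 were higher and 0 were lower (median 1.67). Top2a, which untangles DNA before chromosomes separate, was at 9.69 at 0 h, 21.8 at 4 h and 149 at 24 h, while the cohesin subunit Smc3 was at 41.6 and 49.3. Mki67, the proliferation antigen Ki-67, was at 4.98, 2.86 and 27.9.

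The promoters of these genes are shown because a pair of short motifs is known from late cell cycle genes: the CCAAT box, bound by NF-Y, and the CHR element, bound by complexes that repress or activate such genes over the cycle. RefSeq promoter windows (GRCm38.p6, 250 bases before to 50 bases after the start) were found for 65 of the 79 genes. The word TTTGAA on either strand was in 40 of these 65 windows (61.5%), against 968 of 8474 windows (11.4%) over all measured genes with a window. CCAAT on either strand was in 45 (69.2%), against 39.7%. That word was also common in windows of the genes that copy and repair DNA, given below. By list, TTTGAA was in 18 of 23 windows of spindle motor genes (78.3%) and in 11 of 23 of kinetochore genes (47.8%). The windows below are those of Ccnb2 (chr9:70421505-70421804, minus strand) and Cdc20 (chr4:118437294-118437593, minus strand), chosen after the values were seen, with CCAAT and TTTGAA words in capitals.
Ccnb2: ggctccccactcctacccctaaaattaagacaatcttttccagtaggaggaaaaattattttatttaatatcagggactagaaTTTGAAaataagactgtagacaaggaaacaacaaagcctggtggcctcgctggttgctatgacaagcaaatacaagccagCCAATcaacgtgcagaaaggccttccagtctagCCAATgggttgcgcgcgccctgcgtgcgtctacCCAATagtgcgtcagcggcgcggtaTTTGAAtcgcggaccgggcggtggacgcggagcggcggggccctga
Cdc20: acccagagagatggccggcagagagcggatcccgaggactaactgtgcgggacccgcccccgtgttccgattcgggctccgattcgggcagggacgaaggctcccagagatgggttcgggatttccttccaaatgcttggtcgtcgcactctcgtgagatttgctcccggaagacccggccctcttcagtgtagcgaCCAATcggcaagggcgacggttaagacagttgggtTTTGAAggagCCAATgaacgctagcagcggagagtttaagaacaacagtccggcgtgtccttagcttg
In Ccnb2 the CCAAT words begin 87, 54 and 21 bases before the start, and TTTGAA begins 167 bases before it and again 4 bases after it. In Cdc20 CCAAT begins 53 and 8 bases before the start and TTTGAA 18 bases before it. A word match describes these letters and does not show binding.

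Among genes that copy and repair DNA the median differences were smaller. Of 48 measured genes of the replication origin and fork 28 were higher and 0 were lower (median 1.15). Of the 48, 6 were counted as measured through the 24 h library alone, and all 6 were higher. Among the 42 with an FPKM of 1 or more at both times 22 were higher (median 1.03). Gmnn, the licensing inhibitor geminin, was at 2.92 at 0 h, 1.24 at 4 h and 10.3 at 24 h, and Cdc45, part of the replicative helicase, at 3.61, 2.65 and 15.96. The helicase subunit Mcm5 was at 5.47, 5.09 and 19.8. Pcna, the sliding clamp of the polymerases, differed from these, since it was already at 238 at 4 h against 55.9 at 0 h, and was at 129 at 24 h. Orc2 showed the same order, at 5.63, 18.04 and 10.8. Of 27 genes of homologous recombination and Fanconi repair 13 were higher and 0 lower (median 0.86, or 1.5 with a pseudocount of 0.1), among them Fancd2, at 0.442 at 4 h and 5.47 at 24 h. Of the 27, 13 were counted as measured through the 24 h library alone and could only lie on the higher side. Among the 14 with an FPKM of 1 or more at both times 6 were higher.

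Of 28 measured genes of nucleotide synthesis 4 were higher and 2 lower, with a median of 0.04. The share of lower genes was close to that over all measured genes. Of these 28, 1 was counted as measured through the 24 h library alone, and it was higher. Among the 27 with an FPKM of 1 or more at both times 3 were higher and 2 lower (median 0.01). The thymidine kinase Tk1 was at 5.92 at 0 h, 2.78 at 4 h and 38.8 at 24 h. The purine and folate genes Impdh1 and Mthfd1l were instead highest at 4 h, at 64.6 and 28.9, and at 23.1 and 6.95 at 24 h. Of 24 genes of the G1 phase 2 were higher and 2 lower (median 0.25), shares close to the 6.33% and 7.14% over all measured genes. The higher genes were the phosphatase gene Cdkn3 (0.802 at 4 h and 10.3 at 24 h) and the pocket protein gene Rbl1 (1.83 and 7.09). The lower ones were Cdk6 (7.40 and 1.74) and the inhibitor gene Cdkn2a (483 and 233). Of these 24, 2 were counted as measured through the 24 h library alone, Cdkn3 among them, and could only lie on the higher side. Among the 22 with an FPKM of 1 or more at both times 1 was higher and 2 lower (median 0.09). Cyclin D1 (Ccnd1) was nearly level, at 39.7 and 34.0.

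Over the 3 lists of DNA synthesis and repair, E2F words (TTTCCCGC, TTTCGCGC, TTTGCCGC or TTTGGCGC on either strand) were in 20 of 85 windows (23.5%), against 4.47% over all measured genes. The mitotic genes held them in 7 of 65 windows (10.8%), and TTTGAA was in 9 of the 85 windows (10.6%). CCAAT was in 48 of the 85 windows (56.5%), against 39.7% over all measured genes. The window of Mcm5 (chr8:75109259-75109558, plus strand) is shown with its E2F words in capitals, chosen after the values were seen.
Mcm5: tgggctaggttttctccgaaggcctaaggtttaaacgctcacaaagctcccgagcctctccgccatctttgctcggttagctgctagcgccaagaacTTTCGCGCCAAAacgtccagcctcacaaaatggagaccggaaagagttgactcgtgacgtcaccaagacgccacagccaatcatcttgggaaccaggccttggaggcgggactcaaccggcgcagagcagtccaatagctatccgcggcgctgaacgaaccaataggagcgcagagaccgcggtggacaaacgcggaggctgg
It holds TTTCGCGC, beginning 153 bases before the start, which runs into GCGCCAAA, the reverse complement of TTTGGCGC, beginning 149 bases before it. The start used by RefSeq lies 19 bases from the end of the locus in the authors' table.

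**Figure D2:**
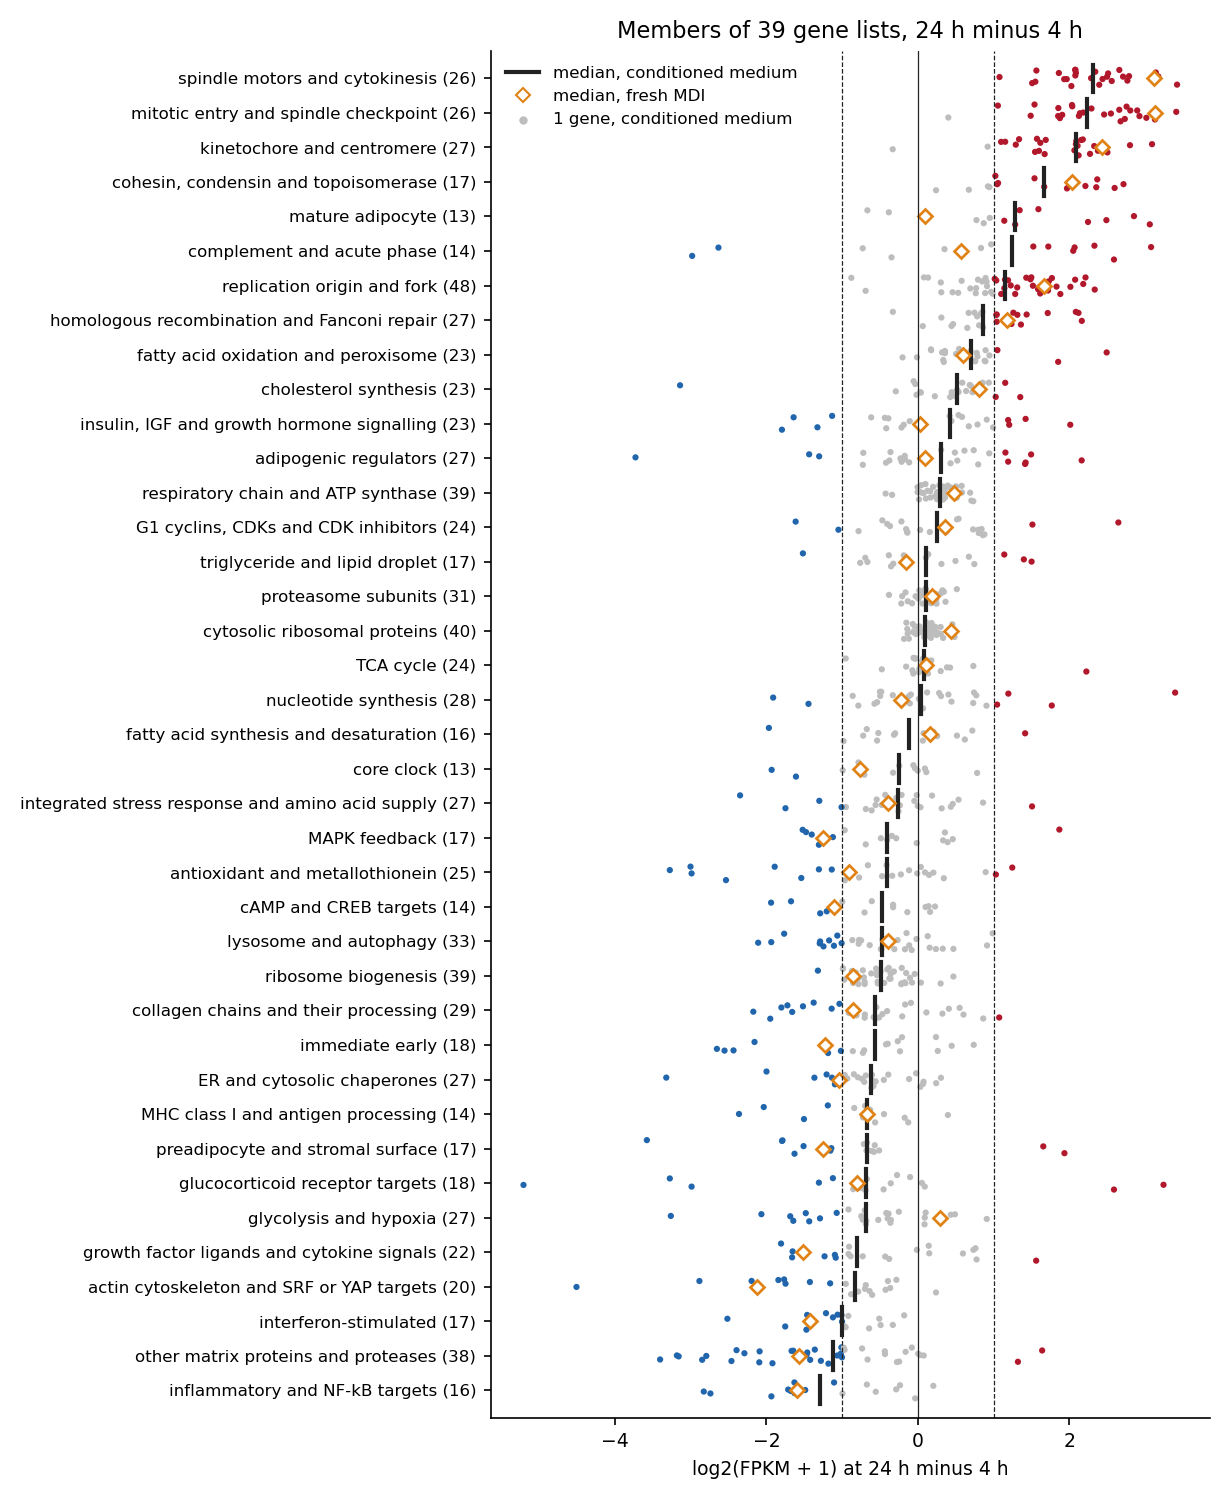
Difference in log2(FPKM + 1) between 24 h and 4 h for the measured members of 39 gene lists (number of members in brackets), 1 point a gene in conditioned medium, red at least 2-fold higher and blue at least 2-fold lower. Black bars are list medians in conditioned medium and open diamonds those in fresh MDI; the mitotic lists lie at the top, with medians of 2.09 to 2.32, and inflammatory genes at the bottom, with a median of -1.30.

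Of the genes known to answer the inducers at once, some were lower at 24 h than at 4 h, and most stayed within 2-fold. Of 18 immediate early genes, which are transcribed without new protein synthesis, 6 were lower, 0 were higher and 12 lay within 2-fold (median -0.57). Of these 18, 2 were counted as measured through the 4 h library alone, and 1 of them was among the lower genes. Among the 16 with an FPKM of 1 or more at both times 5 were lower (median -0.41). The AP-1 subunit gene Fosl1 was at 2.64 at 0 h, 144 at 4 h and 25.8 at 24 h, Fosl2 at 18.2, 124 and 26.9, and Ier3 at 8.52, 50.5 and 7.18. Myc remained well above 0 h, at 3.98, 97.1 and 58.3. Of 17 genes of MAPK feedback 5 were lower, 1 higher and 11 within 2-fold (median -0.41). The phosphatase genes Dusp5, Dusp6 and Dusp7, which switch MAP kinases off, went from 14.1, 25.03 and 38.2 at 4 h to 4.27, 8.85 and 13.1 at 24 h. Spry1, an inhibitor of receptor tyrosine kinase signals, was the one that was higher, at 3.65 and 15.98. Of 14 cAMP and CREB targets 4 were lower, 0 higher and 10 within 2-fold (median -0.47). The 4 were the nuclear receptor genes Nr4a1, Nr4a2 and Nr4a3 and the kinase gene Sik1. Nr4a3 was counted as measured through the 4 h library alone and so could only lie on the lower side. Among the 13 with an FPKM of 1 or more at both times 3 were lower (median -0.33). Nr4a1 was at 10.3 at 0 h, 271 at 4 h and 84.2 at 24 h. Rgs2, which dampens G protein signals, was at 9.05, 78.4 and 91.9, so that the list did not move as one.

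Of 18 glucocorticoid receptor targets 5 were lower, 2 higher and 11 within 2-fold (median -0.68). Il1rl1, the interleukin 33 receptor, was at 11.2 at 0 h, 144 at 4 h and 2.92 at 24 h, a 49.4-fold ratio between the CM libraries. The metallothionein genes Mt1 and Mt2 were at 4607 and 4318 at 4 h and at 579 and 444 at 24 h, beside 613 and 186 at 0 h. Fkbp5, a co-chaperone of the receptor, stayed within 2-fold at 477 and 295, as did Tsc22d3 (GILZ) at 245 and 191 and Glul, glutamine synthetase, at 265 and 246. In contrast Angptl4, a secreted inhibitor of lipoprotein lipase, was at 95.6 at 0 h, 24.9 at 4 h and 245 at 24 h, and Lcn2 (lipocalin 2) at 0.0408, 44.8 and 275. The targets included genes that returned to near the 0 h level, genes that stayed up and genes that were highest at 24 h.

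Of 16 inflammatory and NF-κB targets 9 were lower, 0 higher and 7 within 2-fold (median -1.30, or -0.56 with no filter on low values). Of these 16, 4 were counted as measured through the 4 h library alone, and among the 12 with an FPKM of 1 or more at both times 5 were lower (median -0.83). Ptgs2 (cyclooxygenase 2) was at 1.39 at 0 h, 10.2 at 4 h and 0.575 at 24 h, and Csf1, the macrophage growth factor, at 40.9, 63.7 and 8.68. Of 17 interferon-stimulated genes 9 were lower, 0 higher and 8 within 2-fold (median -1.001). The list's size rests on weakly expressed genes: its median was -1.98 with a pseudocount of 0.1 and -0.33 with one of 5, and 8 of the 17 were counted as measured through the 4 h library alone. Among the other 9 genes 3 were lower (median -0.64). Bst2 (tetherin), an antiviral membrane protein, was level between 0 h and 4 h, at 228 and 224, and was at 38.4 at 24 h. Isg15 was at 49.1, 14.6 and 3.64. Of 14 genes of MHC class I and antigen processing 4 were lower, 0 higher and 10 within 2-fold (median -0.67). Of these 14, 2 were counted as measured through the 4 h library alone, and 1 of them was among the lower genes. Among the 12 with an FPKM of 1 or more at both times 3 were lower. The lower ones included B2m, the light chain of class I molecules, at 1358 at 0 h, 1554 at 4 h and 301 at 24 h. The immunoproteasome gene Psmb8 was at 4.94 and 0.449 in CM. H2 genes have close relatives whose reads may be split by the counting.

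Of 14 complement and acute phase genes 7 were higher, 2 lower and 5 within 2-fold (median 1.25, or 1.92 with a pseudocount of 0.1, 0.41 with one of 5 and 1.89 at an FPKM of 5 or more). Of the 14, 4 were counted as measured through the 24 h library alone, and among the 9 with an FPKM of 1 or more at both times 5 were higher and 1 lower. Saa3, a serum amyloid A, was at 0.588 at 0 h, 4.02 at 4 h and 41.5 at 24 h. C3, the central complement component, was level at 44.3 and 41.6 and was at 214 at 24 h. Haptoglobin (Hp) was at 1.89 at 4 h and 11.0 at 24 h. C1ra and Serping1, a complement protease and the C1 inhibitor, were lower instead, at 50.4 and 8.25 at 4 h and 5.50 and 0.489 at 24 h. Orm1, Orm2, Orm3 and the Saa genes are near-identical families, and their single values are uncertain.

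Of 26 genes of the mature fat cell 13 stayed under an FPKM of 1 in both libraries, 8 were higher, 0 were lower and 5 lay within 2-fold. Cd36, Plin1, Retn and Cidec were counted as measured through the 24 h library alone and so could only lie on the higher side. Among the 9 genes with an FPKM of 1 or more at both times 5 were higher (median 1.14). Fabp4, the fatty acid binding protein of adipocytes, was at 27.9 at 0 h, 35.3 at 4 h and 108 at 24 h, and lipoprotein lipase (Lpl) at 97.5, 138 and 339. Lipe, hormone-sensitive lipase, was at 7.81, 7.67 and 61.8. The lipid droplet genes Cidec and Plin1 were barely detected at 4 h, at 0.315 and listed at 0, and were at 10.001 and 3.75 at 24 h. Dgat2, the last enzyme of triglyceride synthesis, was at 1.22 at 0 h, 11.4 at 4 h and 6.83 at 24 h.

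Among 27 regulators of adipogenesis 6 were higher and 3 lower (median 0.31, which was -0.11 when an FPKM of at least 5 was required). Cebpa, which drives the late program, was at 8.82 at 0 h, 7.76 at 4 h and 38.3 at 24 h, while Pparg was within 2-fold at 27.2, 43.5 and 54.1. The early factors Cebpb and Cebpd were at 784 and 45.8 at 4 h and 724 and 27.3 at 24 h, and Klf5 at 98.8 and 59.5. Id2 and Id3, inhibitors of helix-loop-helix factors, were at 8.33 and 36.1 at 0 h, 86.8 and 165 at 4 h, and 5.61 and 66.3 at 24 h. Dlk1 (preadipocyte factor 1), which holds adipogenesis back, was high already at 0 h, at 669, and was at 833 and 307 in CM. The receptor partner Rxra was at 49.5 and 112, and Srebf1 at 8.54 and 24.5. Stromal and preadipocyte surface genes gave 7 lower and 2 higher of 17 (median -0.68). Of these 17, 2 were counted as measured through the 4 h library alone, and 1 of them was among the lower genes. Among the 15 with an FPKM of 1 or more at both times 6 were lower and 2 higher. Islr was at 55.9 at 0 h, 24.5 at 4 h and 1.13 at 24 h, and Thy1 at 100, 275 and 79.0, but Pdgfra, a marker of fat progenitors, was at 191, 46.1 and 179.

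**Figure D3:**
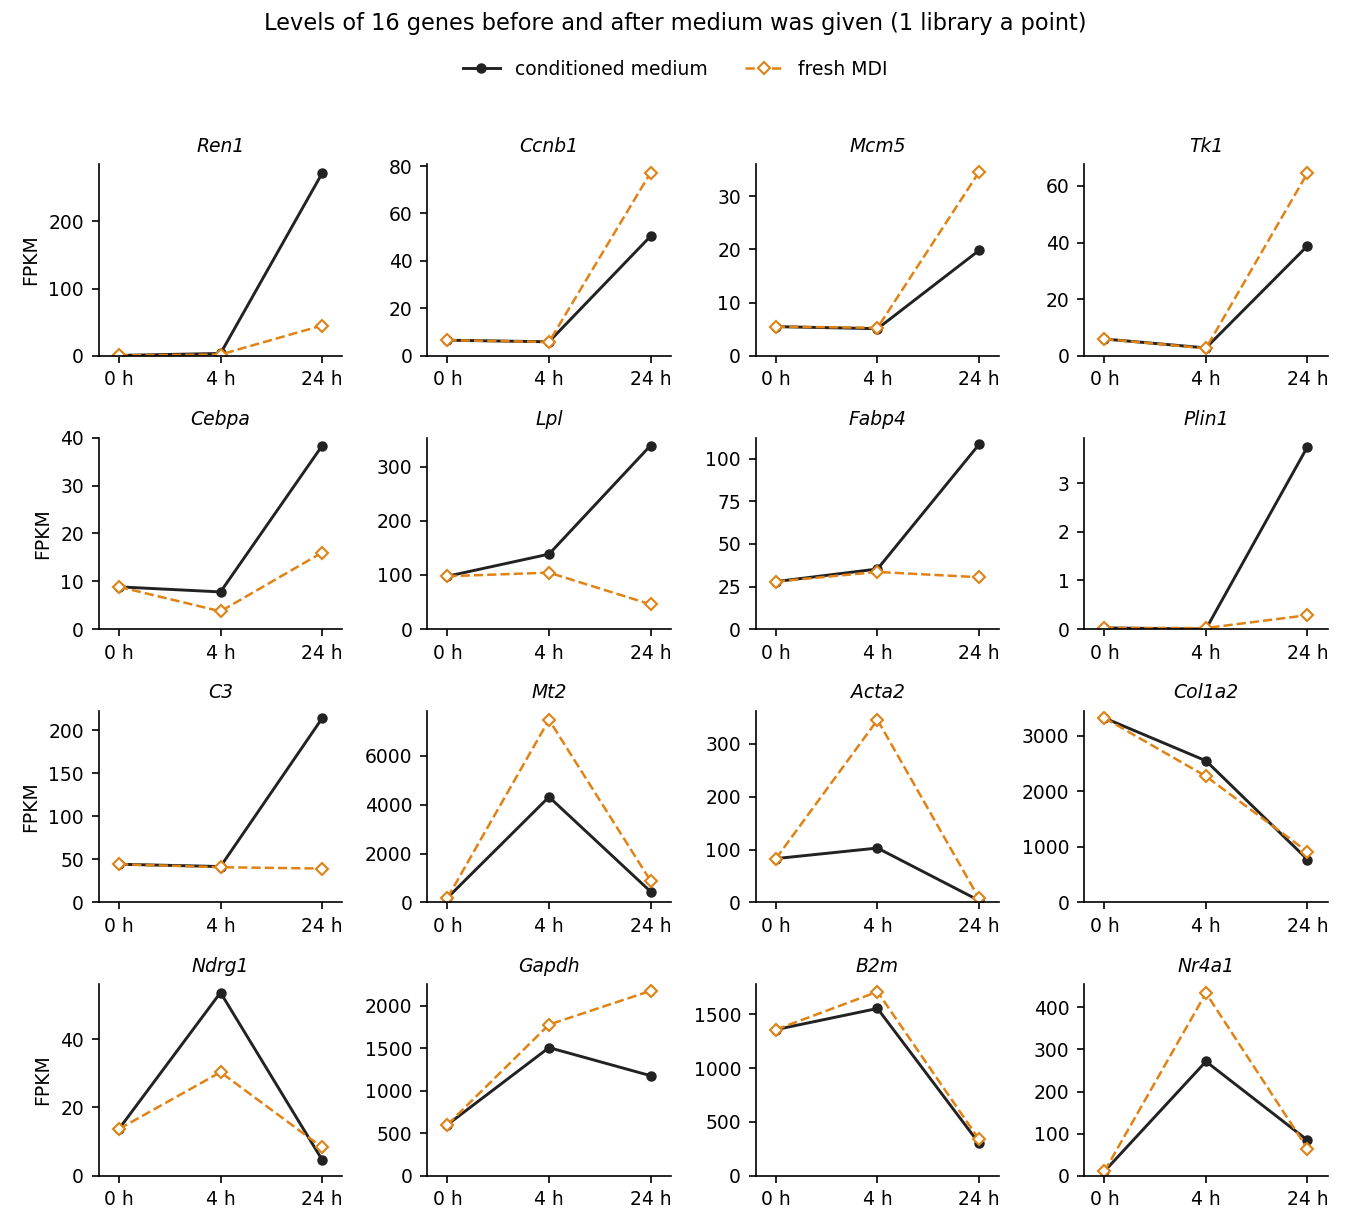
FPKM of 16 genes at 0 h, 4 h and 24 h, with conditioned medium as filled circles and fresh MDI as open diamonds; each point is 1 library, the 0 h library is shared by both lines, and every y axis starts at 0. Ccnb1, Mcm5 and Tk1 are low at 0 h and 4 h and high at 24 h in both media. Lpl, Fabp4 and C3 are high at 24 h in conditioned medium, and Mt2 and Nr4a1 peak at 4 h.

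Lipid metabolism showed no common direction. Shares over all measured genes were 6.33% higher and 7.14% lower, and those of fatty acid synthesis genes were close to them. Of 17 genes of triglyceride and lipid droplets 3 were higher and 1 lower (median 0.11), and of 16 genes of fatty acid synthesis 1 was higher and 1 lower (median -0.12). The sign of both medians depends on the filter, and that of fatty acid synthesis also turns when the libraries are rescaled to TPM. Of the 17 triglyceride and lipid droplet genes, 2 of the higher ones were counted as measured through the 24 h library alone. Among the 15 with an FPKM of 1 or more at both times 1 was higher and 1 lower (median -0.19). Elovl5, a fatty acid elongase, was at 32.1 at 0 h, 123 at 4 h and 30.7 at 24 h. Scd1, the stearoyl-CoA desaturase, was just within the limit at 534 and 270, and Fasn was at 84.9 and 51.0. Of 23 genes of cholesterol synthesis 3 were higher and 1 lower (median 0.52), the lower one being Pmvk at 268 and 29.5, against 11.8 at 0 h. Genes of fatty acid oxidation and the peroxisome were 3 higher and 0 lower of 23 (median 0.70), with 21 of 23 on the positive side. Pex11a, which makes peroxisomes divide, was at 2.71 and 19.9, and Acadm, an acyl-CoA dehydrogenase, at 19.3 and 72.3.

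Of 29 genes for collagen chains and their processing 9 were lower, 1 higher and 19 within 2-fold (median -0.56). Col1a2 was at 3324 at 0 h, 2552 at 4 h and 772 at 24 h, and the collagen cross-linking enzyme Lox at 518, 337 and 74.0. Col5a3 was higher, at 29.4 and 63.1, and the type VI chains Col6a1 and Col6a2 were at 878 and 866 at 4 h and 1166 and 1316 at 24 h. Of 38 other matrix proteins and proteases 23 were lower, 2 higher and 13 within 2-fold (median -1.12). Of the 38, 5 were counted as measured through the 4 h library alone, and all 5 were lower. Among the 33 with an FPKM of 1 or more at both times 18 were lower and 2 higher (median -1.01). Decorin (Dcn) was at 386 at 0 h, 312 at 4 h and 33.4 at 24 h, and the gelatinase Mmp9 at 16.1, 16.3 and 0.934. Versican (Vcan) was level, at 686 and 688. Has2, which makes hyaluronan, and Adamts5 were the higher genes, at 30.5 and 8.33 at 24 h against 9.09 and 2.73.

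Of 20 genes of the actin cytoskeleton and of SRF or YAP targets 8 were lower and 0 higher (median -0.83). Acta2, smooth muscle actin, was at 82.9 at 0 h, 103 at 4 h and 3.56 at 24 h, a 28.9-fold ratio between the CM libraries. The myosin light chain Myl9 was at 16.8, 14.3 and 1.07, and Tpm1, a tropomyosin, at 323, 164 and 44.9. The cytoplasmic actins Actb and Actg1 were within 2-fold, at 874 and 937 at 4 h and 718 and 727 at 24 h. A CArG box (CC, 6 letters that are A or T, GG), the motif that serum response factor is known to bind, was in 5 of the 16 promoter windows found for these 20 genes (31.2%), against 1.33% of all measured windows. The 5 were Actg1, Cnn2, Myl9, Vcl and Srf, so that lower genes and level genes were both among them. The window of Myl9 (chr2:156775214-156775513, plus strand, GRCm38.p6) is shown with the box in capitals because Myl9 had the lowest difference of the 5.
Myl9: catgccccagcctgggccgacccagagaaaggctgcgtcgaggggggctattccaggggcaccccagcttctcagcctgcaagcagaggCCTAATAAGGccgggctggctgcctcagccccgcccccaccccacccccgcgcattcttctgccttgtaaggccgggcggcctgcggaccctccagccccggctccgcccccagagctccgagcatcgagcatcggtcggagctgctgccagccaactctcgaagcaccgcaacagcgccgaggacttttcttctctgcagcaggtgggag
The box begins 161 bases before the start. No box of this exact form was in the window of Acta2, and looser forms of the motif were not searched.

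Of 22 growth factor and cytokine genes 8 were lower and 1 higher (median -0.81). Of these 22, 2 were counted as measured through the 4 h library alone, and 1 of them was among the lower genes. Among the 20 with an FPKM of 1 or more at both times 7 were lower and 1 higher. Sfrp2 and Wnt5a, a Wnt modulator and a Wnt ligand, were at 19.5 and 26.9 at 4 h and 4.84 and 7.81 at 24 h. Cxcl12, the stromal chemokine, was at 1085 at 0 h, 784 at 4 h and 333 at 24 h. Fgf10, a growth factor that promotes adipogenesis, was higher at 3.86 and 13.3. In insulin, IGF and growth hormone signalling 4 of 23 genes were higher and 4 lower (median 0.42), beside 6.33% and 7.14% over all measured genes. Of these 23, 1 was counted as measured through the 24 h library alone, and it was higher. Among the 22 with an FPKM of 1 or more at both times 3 were higher and 4 lower (median 0.16). The adaptors Grb10 and Grb14, which dampen the insulin receptor, went from 15.3 and 11.5 to 4.24 and 2.59, and Pik3ip1, an inhibitor of PI 3-kinase, from 1.49 to 9.05. Stat5a, which carries the growth hormone signal, was at 8.12 and 23.5.

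Genes of glycolysis and the hypoxia response had 8 of 27 at least 2-fold lower at 24 h in CM, 0 higher and 19 within 2-fold (median -0.68). Ndrg1, a gene known for its induction by low oxygen, was at 13.7 at 0 h, 53.6 at 4 h and 4.69 at 24 h. Hk2, the inducible hexokinase, was at 4.49, 48.9 and 10.9, and Vegfa, the vascular growth factor, at 23.2, 201 and 71.2. The mitophagy receptor gene Bnip3 was at 29.0, 162 and 49.5, and the lactate exporter Slc16a3 at 1.47, 6.25 and 1.32. These genes were all high at 4 h and closer to the 0 h level at 24 h. The core enzymes differed by less: Gapdh was at 1509 at 4 h and 1178 at 24 h, and Aldoa at 673 and 565.

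In fresh MDI the same list had a median of 0.29, with 6 of its 27 genes at least 2-fold lower, 1 higher and 17 on the positive side. Phosphoglycerate kinase (Pgk1) was at 478 and 362 in CM and at 526 and 872 in MDI. Triosephosphate isomerase (Tpi1) was at 553 and 423 in CM and at 552 and 989 in MDI, and the dehydrogenase kinase Pdk1 at 21.2 and 12.8 in CM and 14.9 and 28.0 in MDI. At 4 h the media were close for Pgk1 and Tpi1, while Pdk1 was higher in CM. At 24 h the MDI library was higher for each of these enzymes. Ndrg1, Hk2 and Vegfa did not rise in MDI, being lower at 24 h than at 4 h there too. They were at 30.3 and 8.32 for Ndrg1, 110 and 12.2 for Hk2 and 140 and 44.7 for Vegfa. The letters ACGTG or GCGTG, the core of the hypoxia response element, were in 20 of 26 promoter windows of the list on either strand (76.9%), and in 65.6% of all measured windows.

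**Figure D4:**
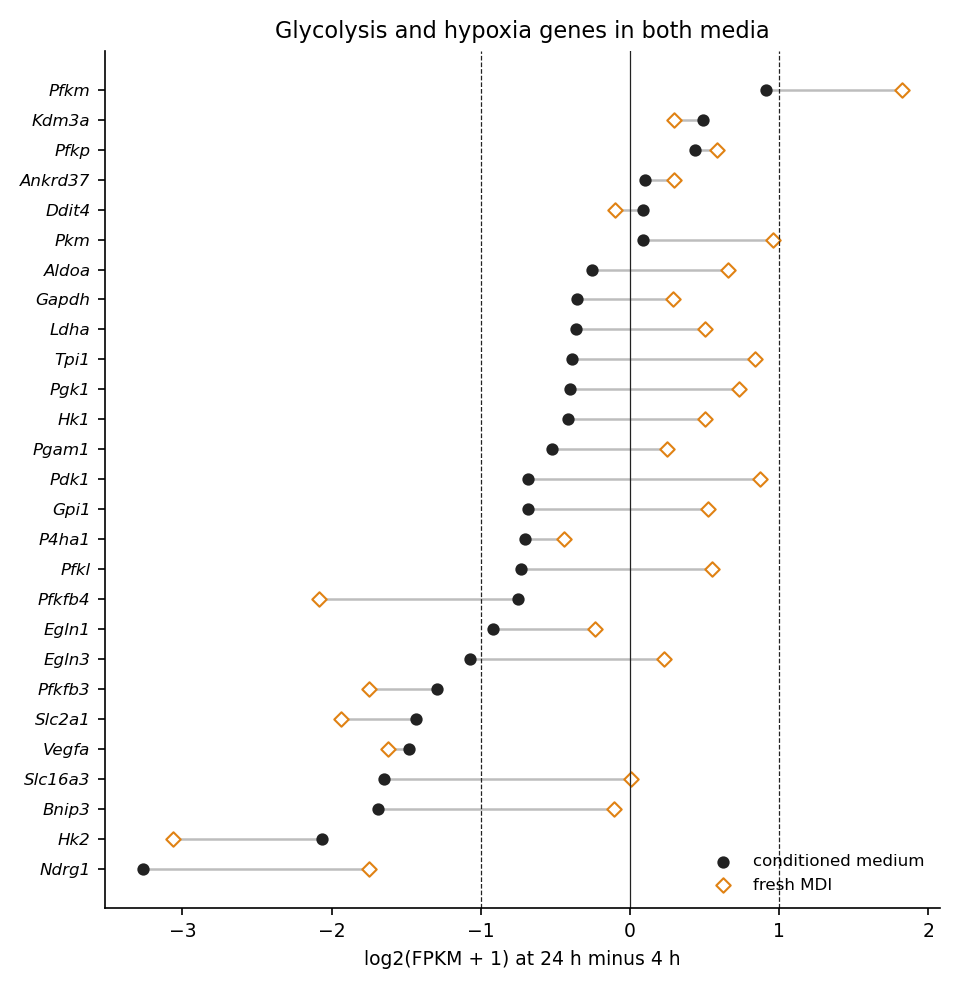
Difference in log2(FPKM + 1) between 24 h and 4 h for the 27 measured genes of glycolysis and the hypoxia response, in conditioned medium (filled circles) and in fresh MDI (open diamonds), with 1 library at each time and dashed lines at a difference of 1 either way. In conditioned medium 21 genes lie left of 0, and in MDI 17 lie right of it.

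Machinery for energy and protein was steadier. None of 39 genes of the respiratory chain and ATP synthase was called, with 35 on the positive side (median 0.30). None of the 40 listed ribosomal proteins (median 0.10) or 31 listed proteasome subunits (median 0.11) was called. The ribosomal protein gene Rpl26 and the immunoproteasome gene Psmb8 are outside these lists, and both were at least 2-fold lower. One of 24 genes of the TCA cycle was higher, the pyruvate carboxylase gene Pcx, at 26.6 at 0 h, 42.4 at 4 h and 202 at 24 h, although the authors' software marked a failed estimate for it. Ribosome biogenesis had 36 of 39 genes on the negative side, 1 at least 2-fold lower (Rrp12, 30.5 and 11.6) and a median of -0.49. Of 27 chaperones 6 were lower and 0 higher (median -0.61). Hspa5 (BiP), the main chaperone of the endoplasmic reticulum, was at 397 at 0 h, 1299 at 4 h and 503 at 24 h, and Cryab, a small heat shock protein, at 96.7, 51.4 and 4.23.

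Of 33 lysosome and autophagy genes 10 were lower and 0 higher (median -0.48), among them Lamp1 at 569 and 252 and the protective protein Ctsa at 210 and 47.9, but Ctsd, cathepsin D, was at 631 and 1253. Of 25 antioxidant genes 8 were lower and 2 higher (median -0.41). Of these 25, 1 was counted as measured through the 4 h library alone, and it was lower. Among the 24 with an FPKM of 1 or more at both times 7 were lower and 2 higher (median -0.38). The glutathione transferase Gstm1 was level between 0 h and 4 h, at 70.8 and 54.1, and was at 5.87 at 24 h, and Nqo1 was at 16.8 and 41.3. Amino acid transporters led the integrated stress response list, in which 4 of 27 were lower and 1 higher (median -0.26), with Slc7a5 at 67.1 and 12.4. In the core clock 2 of 13 were lower and 0 higher (median -0.25), which were Cry1 (17.6 and 3.88) and Per2 (22.4 and 6.66), both repressors of the clock's activators. Over all measured genes 7.14% were lower and 6.33% higher.

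Several of the genes with the largest differences belong to none of these lists. Ren1, the gene of renin, the protease that starts the angiotensin cascade (chromosome 1, 133350566 to 133360323 in the authors' tables), was at 0.546 at 0 h, 3.39 at 4 h and 272 at 24 h, an 80.01-fold ratio between the CM libraries. Some mouse strains carry a near-identical second renin gene, so reads may not separate the copies. The secretoglobin Scgb1c1 was listed at 0 at 0 h and was at 0.153 and 66.6 in CM. Cldn15, a claudin of tight junctions, was at 20.5, 2.78 and 64.3, and Pip was listed at 0, then at 1.04 and 29.9. These are genes of secreted or membrane proteins that were low at 4 h.

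On the lower side, Ramp3, a partner of the calcitonin receptor family, was at 0.644 at 0 h, 148 at 4 h and 4.28 at 24 h, and Vdr, the vitamin D receptor, at 6.95, 362 and 26.8. Ugdh, which makes the UDP-glucuronate used for matrix sugars, was at 75.8, 2324 and 121. These genes were high at 4 h alone. Pdpn (podoplanin) was at 45.0, 106 and 4.16, and Ogn (osteoglycin) at 118, 61.9 and 2.90, so that they ended far under the 0 h level. Fgl2 was at 0.392, 29.3 and 0.0857. Among abundant transcripts, Ftl1, the ferritin light chain, was at 4682, 6045 and 2445, and Lgals1 (galectin 1) at 1667, 1805 and 689. Among the genes at least 2-fold higher at 24 h, those with the highest FPKM at 24 h were Sned1 (220 and 634), Ptms (287 and 609) and Mrps6 (116 and 467). Strand use is not given in the sources used here, and 49 of the 322 genes picked for naming overlap another protein-coding gene in RefSeq. Among them Fgl2 overlaps Ccdc146, Ogn overlaps Cenpp, Kif20a overlaps Cdc23 and Tk1 overlaps Afmid. Cdc20 overlaps Elovl1, B2m overlaps Patl2 and Mrps6 overlaps Slc5a3. Whole gene bodies, introns included, were compared, so how far such pairs share exons is unknown. Reads from shared stretches may not be told apart.

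The same interval in fresh MDI shares no library with the CM pair and can be set beside it. By the same rule, 11.7% of the genes measured in CM were higher in MDI at 24 h than at 4 h and 13.4% were lower, more than in CM. Of the 663 genes that were higher in CM, 513 (77.4%) were also higher in MDI, which is 41.1% of the 1249 that were higher there (11.9% of the genes measured in MDI). Of the 748 lower genes 582 (77.8%) were also lower in MDI, or 40.6% of 1432 (13.7%). The sign was the same for 95.9% of the higher and 97.5% of the lower genes. Across the measured genes the differences in the media had a Pearson r of 0.83, which is given as a description, because genes are not independent and each library enters all of its genes.

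Among genes called in CM, the median difference was 1.38 in CM and 1.64 in MDI for the higher genes, and -1.40 and -1.63 for the lower. For the mitotic genes the CM difference was the smaller in 75 of 79, with medians of 2.13 in CM and 2.86 in MDI. Ccnb2 was at 2.91 and 96.9 in MDI, against 3.29 and 44.8 in CM, so that the media were close at 4 h and apart at 24 h. Actin and SRF or YAP targets had a median of -2.13 in MDI and -0.83 in CM. The summed FPKM of the 24 listed genes differed more at 4 h (3296 in CM and 10838 in MDI) than at 24 h (2094 and 2541). Acta2 was lower in CM at both times, at 103 against 345 in MDI at 4 h and 3.56 against 7.67 at 24 h. The 13 mature adipocyte genes measured in CM had a median of 0.10 in MDI and 1.29 in CM, a set that was filtered on CM levels. Fabp4 was at 33.6 and 30.4 in MDI, and Lipe at 3.62 and 21.6. C3 was at 40.8 and 39.2 in MDI, in place of 41.6 and 214.

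**Figure D5:**
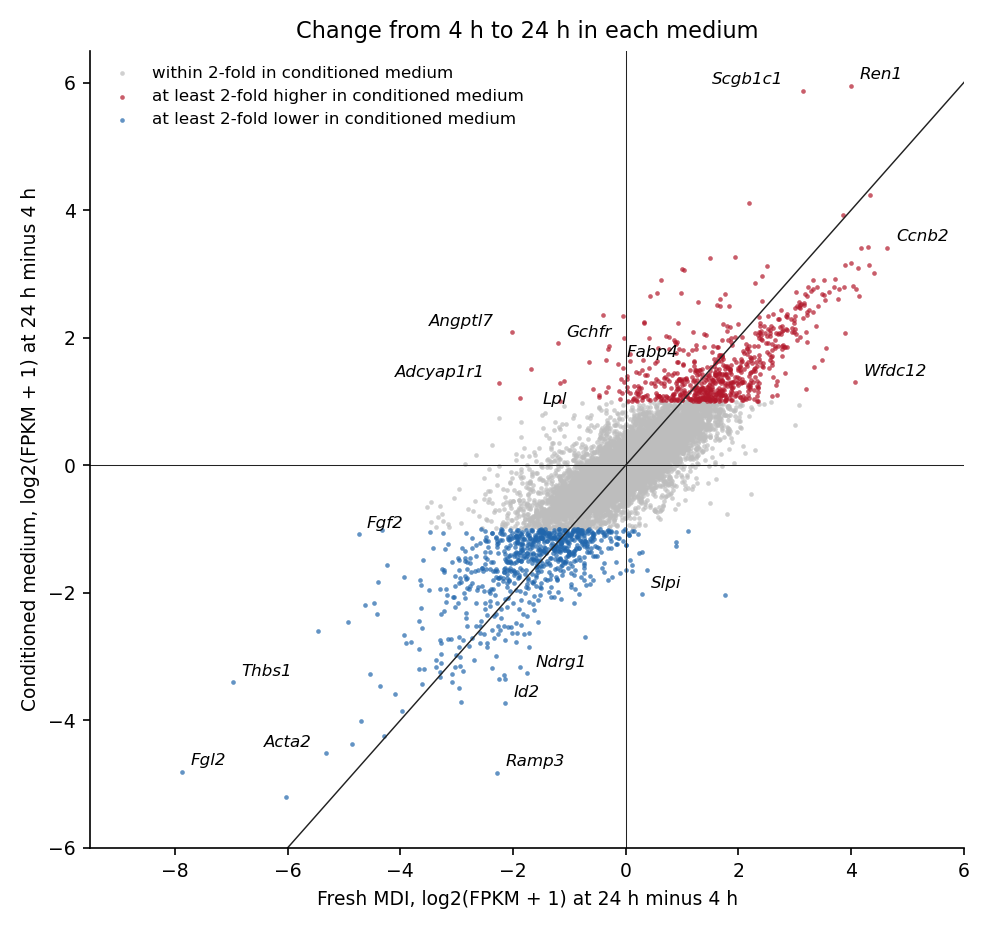
Difference in log2(FPKM + 1) between 24 h and 4 h in fresh MDI (x axis) and in conditioned medium (y axis) for each of the 10479 measured genes, with 2 libraries behind each axis and equal differences on the diagonal. Most genes share a sign in both media; Ren1 and Scgb1c1 lie above the diagonal, Ccnb2 below it, and Lpl, Gchfr, Angptl7 and Adcyap1r1 have opposite signs.

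The gaps between the media, taken as the CM difference minus the MDI difference, were wide for some genes. Thbs1 (thrombospondin 1) was at 147 and 12.9 in CM and at 659.4 and 4.29 in MDI, a gap of 3.56. Tnc (tenascin C) was at 24.2 and 11.5 in CM and 85.0 and 3.28 in MDI, and Fgf2 at 3.44 and 1.09 in CM and 33.9 and 0.305 in MDI. Ctgf, a YAP target, was at 0.118 and 0.152 in CM, too low to be measured there, and at 16.5 and 0.263 in MDI. For these genes the 4 h level in MDI was well above that in CM. In the other direction, the antiproteinase gene Slpi was at 27.7 and 6.08 in CM and at 13.7 and 17.0 in MDI (gap -2.31). Its relative Wfdc12 was at 3.09 and 9.07 in CM and at 0.592 and 25.7 in MDI (gap -2.77). Ramp3 was at 148 and 4.28 in CM and at 95.1 and 18.8 in MDI, a gap of -2.55.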

How the data were processed

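RNA from 3T3-L1 cells was extracted with Trizol and sequenced on Illumina libraries, per the labels' protocols. The submitters' processing notes name TopHat2 (2.0.13) beside Cuffdiff (2.2.0). Settings, the genome build and strand use were not given in the sources used here. FPKM of 23996 genes were deposited by the authors in tables of 2 libraries each, with whole-table values used unchanged. Several tables are attached to samples other than those whose values they hold (the one attached to the sample labelled 4h CM holds the 0h and 4h MDI libraries), so a library's identity rests on the sample cells inside the tables. Starts have 1 added.

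Differences are log2(FPKM + 1) at 24 h minus 4 h, with a pseudocount of 1, over protein-coding genes that reached an FPKM of 1 in either library. With 1 library a side no test was made. The p-values deposited by the authors compare other pairs and were not used. The 39 gene lists and the comparison itself were chosen with earlier results of these data known. Named genes were the 12 highest and 12 lowest with an FPKM of at least 5, per list the 4 largest differences and up to 2 nearest the median, 22 fixed genes, the 8 widest gaps to MDI each way and the 10 most abundant called genes each way; 38 others, mostly exceptions within a list, were chosen after their values were seen. Promoter windows were matched for 8474 measured genes (80.9%), 435 of the matches through an older symbol, and lists with under 80% are not reported singly. Words for a cAMP response element (TGACG) and an E-box (CACGTG) were also searched, and were in 34.1% and 10.6% of all windows. Joining the mitotic and the DNA synthesis lists was decided after coverage was seen. Scripts ran in Python 3.11.15 with pandas 2.3.3, numpy 2.4.6 and matplotlib 3.10.9.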

Additional observations from a re-analysis of the deposited data

Results flagged for a closer look

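In 8 of 8691 genes that reached an FPKM of 5 in any of the 4 treated libraries and were above 0 in all of them, the level at 24 h was at least 2-fold higher than at 4 h in one medium and at least 2-fold lower in the other. With 1 library a condition this difference was not tested. Higher at 24 h in CM and lower in MDI were Angptl7 (gap 4.10), Adcyap1r1 (3.53), Gchfr (3.11), Ldlrad4 (2.94), Lpl (2.46), Larp1b (2.42) and Cd33 (2.18), while Prelid2 was lower in CM and higher in MDI (-2.15). Lpl was at 138 and 339 in CM and at 104 and 45.7 in MDI. Gchfr, the feedback regulator of GTP cyclohydrolase, was at 30.5 and 117 in CM and at 27.4 and 11.4 in MDI. Adcyap1r1, a receptor of the neuropeptide PACAP, was at 2.401 and 7.27 in CM and at 6.62 and 0.601 in MDI. Angptl7 was at 0.893 and 7.04 in CM and at 3.36 and 0.0829 in MDI, and its locus overlaps Mtor. Without those limits on level the count was 10, with Agpat9 (0.724 and 3.88 in CM, 2.97 and 0.236 in MDI) and Rpl26 (3.12 and listed at 0 in CM, 2.77 and 11.9 in MDI) added.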

How the results depend on the processing

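No paired analysis was possible because each condition is 1 library and the labels give no replicate numbers. With a pseudocount of 5 in place of 1, 270 genes were called higher and 429 lower, and with 0.1 they were 961 and 938. An FPKM of at least 5 gave 516 and 646, rescaling to TPM 911 and 703, the median ratio 698 and 716, and all genes in place of protein-coding ones 721 and 804. Dropping the filter left 663 and 748, by construction. TPM moved the median of all genes from -0.02 to 0.08. List medians that changed sign were those of adipogenic regulators (-0.11 at an FPKM of at least 5), triglyceride and lipid droplet genes (-0.19 at an FPKM of at least 5 and -0.014 without a filter) and fatty acid synthesis genes (0.046 without a filter and 0.088 with TPM); the cause was not tested. Other list medians kept their sign but moved by over 1.5-fold (linear scale). With a pseudocount of 0.1 they were recombination and Fanconi repair (1.5), complement and acute phase (1.92) and interferon-stimulated genes (-1.98). With a pseudocount of 5 they were mitotic entry (1.64), kinetochore (1.09), spindle motors (1.62), cohesin and condensin (1.03), inflammatory (-0.66), complement (0.41) and interferon genes (-0.33). An FPKM of at least 5 moved complement to 1.89, and no filter moved inflammatory genes to -0.56. List counts over members with an FPKM of 1 or more at both times were added after the data were seen. With TPM, Cdkn2a (-0.95) and Prelid2 (-0.98) were no longer called and Dsn1 (1.05) and Ctsd (1.09) were. Among the 322 named genes none that was called changed sign under the other pseudocounts or scalings. Depth is unknown, so no counting limit can be given for low values.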
